A study of Mus musculus with 12 samples.

Results

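The 46 genes described here were chosen by the start of their symbols and belong mainly to the purine, lipid mediator, chemoattractant, amine, adhesion and orphan receptors of the G protein-coupled receptor (GPCR) superfamily. They came from 3188 genes listed in either of 2 tables of FPKM (fragments per kilobase of transcript, scaled to the mapped fragments of each library). The Treg cell table held 17 of them among 1284 genes, the microglia table held 37 among 2186 genes, and 8 had a row in both. Gpr34, Gpr83, Gpr84 and S1pr1 also match these symbols and were set aside. The symbols caught 3 genes that are not GPCRs. Htra3 and Htra4 encode secreted serine proteases, and P2rx1 encodes an ATP-gated ion channel.

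The libraries were bulk mRNA from mice in 4 groups of 3. Regulatory T cells (Treg cells), which hold immune responses in check, were taken 14 days after spinal cord injury from the spleen or from the injured cord itself. Primary microglia were cultured without stimulation as the control or together with Treg cells, and microglia were then collected. Strain, sex, age, genotype, the way the cells were isolated, the source of the Treg cells in the co-culture and the number of animals or cultures behind a group were not stated. The p-values therefore weigh a group difference only against the scatter between libraries of a group, partly pooled over genes. That scatter may be technical. The control culture held microglia alone, so an effect of Treg cells in particular and of any added cell cannot be told apart.

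Both tables held only genes that the authors had selected as changed in these same libraries. Of the genes tested with limma, 99.6% of 1072 in the Treg cells and 100% of 1529 in the microglia passed an adjusted p of 0.05, so the passing of a receptor is no result in itself, and receptors without a row were not analysed. FPKM values carry no sequencing depth. Table sums of FPKM ranged from 64893 to 65362 in the spleen, 111243 to 134887 in the spinal cord, 59529 to 61068 in the control microglia and 115884 to 117408 in the co-culture. These sums cover selected genes and are not library sizes. Of the T cell markers, Ctla4 and Cd2 had rows in the Treg table and were expressed in every library. Of 12 microglia and macrophage markers, 5 had rows in the microglia table and were above 0 in every library. Aif1 and Itgam rose there and Cx3cr1, Tmem119 and Cd14 fell, and the call of Itgam was lost with every library scaled to an equal total.

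GPCRs cross the membrane in a bundle of helices and pass an outside signal to heterotrimeric G proteins, which raise or lower cyclic AMP or open calcium stores. Adenosine, made from released ATP by cell surface enzymes, acts on T cells and macrophages mainly through receptors that raise cyclic AMP. Leukotrienes, formyl peptides and complement fragments draw leukocytes into inflamed tissue, and the microglia of the healthy brain and cord carry many nucleotide, lipid and adhesion receptors with which they sense damage.

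In the co-cultured microglia the receptors for leukotriene B4, hydroxycarboxylic acids, histamine, UDP-glucose and adenosine were higher, while a serotonin receptor, the adhesion receptors Adgre5 and Adgrg1 and several orphan receptors were lower. Of the 37 genes, 22 had a mean of at least 1 FPKM and were tested, and 10 rose and 12 fell. Among all genes tested 53.4% rose and 46.6% fell. The median log2 fold change was -0.86 over the 22 and 0.74 over all genes tested. The median of the 22 lay on the smallest falls, those of Adgrg1 and Htra3 (-0.87 and -0.86). No tested member stood between these and the smallest rise, 1.07 (Fpr2). This median thus depends on the split of 10 and 12 and does not measure a shared shift. Of the 22, 19 differed by at least 1 on the log2 scale in either direction, against 72.8% of all genes tested. With every library scaled to an equal total 9 rose and 12 fell, against 35.1% and 47.8% of all genes, and after quantile normalization 10 rose and 12 fell, against 47.2% and 45.9%. Without Htra3 and Htra4, 9 receptors rose and 11 fell. The control and co-cultured libraries did not overlap in any of the 37 genes, and in the whole table they did not overlap in 99.5% of genes. All log2 fold changes are differences of mean log2(FPKM + 1), which understates changes of low genes, and adjusted p-values are from limma with Benjamini-Hochberg adjustment over the table.

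**Figure D1:**
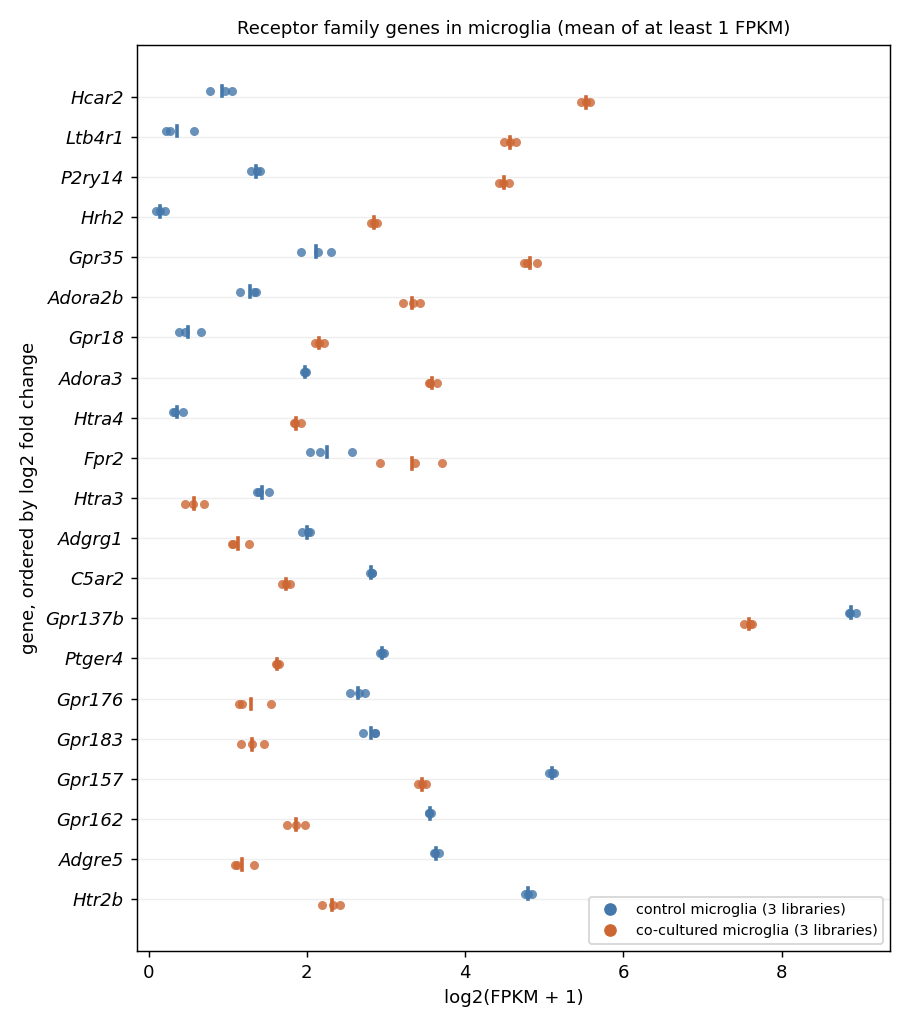
Expression of 21 of the 22 receptor family genes tested in microglia, as log2(FPKM + 1) on the horizontal axis, with a point for each library and a bar at each group mean. Genes are ordered by log2 fold change, from Hcar2 at 4.59 to Htr2b at -2.48, and the 2 groups of 3 libraries stand apart in every gene shown.

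The promoter sequences of these genes from RefSeq (GRCm38.p6), where 36 of the 46 genes matched by NCBI gene ID, are shown for receptors that rose in co-culture (Hrh2, Ltb4r1, Adora2b and Adora3) and for 2 pairs of neighbours, of which Gpr18 rose and Gpr183 fell in the microglia and Fpr1 and Fpr2 had rows in different tables. Each line gives the 120 bases before the listed start of transcription, 5′ to 3′ on the strand of the gene, and capitals mark matches to the motifs named after the sequences. Gpr18 is at chr14:121915889-121916008, minus strand, and Gpr183 at chr14:121965194-121965313, minus strand. Fpr1 is at chr17:17883940-17884059, minus strand, and Fpr2 at chr17:17887704-17887823, plus strand. Hrh2 is at chr13:54192013-54192132, plus strand, Ltb4r1 at chr14:55765842-55765961, plus strand, Adora2b at chr11:62248864-62248983, plus strand, and Adora3 at chr3:105904301-105904420, plus strand.
Gpr18: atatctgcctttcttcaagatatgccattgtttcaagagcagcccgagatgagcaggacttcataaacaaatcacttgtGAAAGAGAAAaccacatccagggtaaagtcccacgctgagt
Gpr183: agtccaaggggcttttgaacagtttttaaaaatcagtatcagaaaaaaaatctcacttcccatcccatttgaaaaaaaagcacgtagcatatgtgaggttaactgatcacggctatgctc
Fpr1: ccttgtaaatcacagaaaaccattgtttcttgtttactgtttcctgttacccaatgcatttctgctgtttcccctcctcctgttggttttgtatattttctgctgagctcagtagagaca
Fpr2: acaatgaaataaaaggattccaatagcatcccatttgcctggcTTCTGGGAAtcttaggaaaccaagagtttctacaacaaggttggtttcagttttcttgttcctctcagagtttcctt
Hrh2: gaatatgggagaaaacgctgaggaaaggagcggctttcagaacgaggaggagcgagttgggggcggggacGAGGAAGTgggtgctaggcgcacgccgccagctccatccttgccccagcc
Ltb4r1: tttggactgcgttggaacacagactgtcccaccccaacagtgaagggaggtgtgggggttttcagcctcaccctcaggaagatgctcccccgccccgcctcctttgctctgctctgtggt
Adora2b: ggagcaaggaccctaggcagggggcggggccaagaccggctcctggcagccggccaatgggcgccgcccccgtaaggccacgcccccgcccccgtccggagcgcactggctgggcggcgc
Adora3: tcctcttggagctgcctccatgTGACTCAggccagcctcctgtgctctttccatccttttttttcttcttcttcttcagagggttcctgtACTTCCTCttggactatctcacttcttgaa

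The 250 bases before the start were searched on both strands for 6 motifs, with no overlap between matches in these genes. Genes were counted by the direction of their mean FPKM, also when not tested. The gamma-activated site of STAT factors, TTCNNNGAA, was in 7.18% of 27025 promoters of the table, in 2 of 15 promoters of genes higher in co-cultured microglia, Fpr2 and Gpr55, and in 0 of 13 promoters of genes lower there. The core of the interferon-stimulated response element, GAAA followed by any 2 bases and GAAA, was in 3.04% of all promoters and in those of Gpr18 and Gpr15, which were both higher in co-culture, and in 0 of the 13. In the Treg cells Gpr18 rose and Gpr15 fell. The core bound by PU.1, a transcription factor of macrophages and microglia, GAGGAAGT, was in 2.44% of all promoters, in 3 of the 15, those of Adora3, Gpr55 and Hrh2, and in 1 of the 13. The AP-1 motif TGANTCA was in 6.87% of all promoters and in 3 of the 15 and 3 of the 13. The cyclic AMP response element TGACGTCA, in 1.62% of all, and the Ets and IRF motif, GGAA followed by any 2 bases and GAAA, in 2.38% of all, were in the promoter of no member. A match describes letters only. For genes with several listed starts the one listed at the top was used.

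All 3 nucleotide sugar and adenosine receptors with a row rose. P2ry14 (NCBI gene 140795, chromosome 3, 59114623 to 59153492, GRCm38.p6), which responds to UDP-glucose, held 1.58, 1.46 and 1.65 FPKM in the control libraries and 20.6, 22.4 and 21.2 FPKM in the co-cultured libraries. Its level was low in every control and 13.7-fold higher in co-culture (log2 fold change 3.13, SE 0.07, limma adjusted p = 1.60e-08). Adora2b (chromosome 11, 62248984 to 62266452), the low-affinity adenosine receptor that raises cyclic AMP, held 1.51, 1.23 and 1.56 FPKM in the control libraries and 9.73, 8.32 and 9.13 FPKM in the co-cultured libraries, a rise of 6.32-fold (log2 fold change 2.05, SE 0.09, limma adjusted p = 2.86e-07). Adora3 (chromosome 3, 105904421 to 105908928), an adenosine receptor that lowers cyclic AMP, held 2.94, 2.89 and 2.97 FPKM in the control libraries and 10.6, 11.5 and 10.8 FPKM in the co-cultured libraries. The controls of Adora3 lay within 0.08 FPKM of each other, and it rose 3.74-fold (log2 fold change 1.61, SE 0.06). Its printed promoter holds the PU.1 core.

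Of the 15 listed genes that release, break down or carry extracellular nucleotides and adenosine, 5 were tested, and 4 rose and 1 fell, with a median log2 fold change of 1.22. Cd38, which breaks down NAD outside the cell, rose most, from 6.43, 5.35 and 5.97 to 67.1, 64.7 and 65.1 FPKM (log2 fold change 3.27, SE 0.07). Entpd1, the ectonucleotidase CD39 that breaks down ATP, held 51.8, 48.6 and 44.3 FPKM in the control libraries and 155, 158 and 146 FPKM in the co-cultured libraries (log2 fold change 1.65, SE 0.07). Slc29a1, a nucleoside transporter that takes up adenosine, fell from 39.2, 40.8 and 41.7 to 15.5, 16.1 and 16.01 FPKM (log2 fold change -1.30, SE 0.05). Ada, which deaminates adenosine, rose 3.67-fold, and Nt5e, the enzyme CD73 that makes adenosine from AMP, had a log2 fold change of 0.50 that was 0.01 with equal totals (limma adjusted p = 0.946). An enzyme that removes adenosine and one on the way to it thus both rose, while the transporter fell.

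Among receptors for lipid mediators, 4 had a row and 2 were tested. Ltb4r1 (NCBI gene 16995, chromosome 14, 55765962 to 55768492), the high-affinity leukotriene B4 receptor BLT1 that draws leukocytes to inflamed sites, held 0.49, 0.17 and 0.21 FPKM in the control libraries and 21.5, 24.01 and 22.8 FPKM in the co-cultured libraries. All controls were below 1 FPKM and all co-cultured libraries far above them (78.4-fold, log2 fold change 4.21, SE 0.11, limma adjusted p = 2.83e-08), and it ranked 52nd of 817 higher genes on the log2(FPKM + 1) scale. The fold of its means was 119.7 without control library 1. Ptger4 (chromosome 15, 5233399 to 5244187), the prostaglandin E2 receptor EP4, held 6.74, 6.83 and 6.61 FPKM in the control libraries and 2.06, 2.07 and 2.14 FPKM in the co-cultured libraries and fell 3.22-fold (log2 fold change -1.32, SE 0.06). Cysltr2, a cysteinyl leukotriene receptor, and Lpar2, a lysophosphatidic acid receptor, were under the limit for testing. Cysltr2 held 0.08, 0.17 and 0.08 FPKM in the control libraries and 1.13, 1.26 and 1.20 FPKM in the co-cultured libraries, and Lpar2 held 0.36 to 0.38 FPKM in the control libraries and 0.11 to 0.17 FPKM in the co-cultured libraries.

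The enzymes that make and break these lipids were split. Of 19 listed genes of prostanoid and leukotriene metabolism, 8 were tested, 4 rose and 4 fell, and their median log2 fold change was 0.00. With equal totals 2 rose and 4 fell, without calls for the cyclooxygenase gene Ptgs2 and the thromboxane synthase gene Tbxas1. Pla2g4a, the phospholipase that frees arachidonic acid, rose from 11.4, 11.4 and 11.5 to 73.01, 67.7 and 67.7 FPKM (log2 fold change 2.51, SE 0.05), and Ptgs1, the cyclooxygenase COX-1, rose 3.29-fold. Hpgd, which inactivates prostaglandins, changed most, with a log2 fold change of -3.96 (SE 0.08). Alox5, the lipoxygenase that starts leukotriene synthesis, fell from 3.16, 3.08 and 3.26 to 1.09, 1.29 and 1.09 FPKM, and Ltc4s, which makes leukotriene C4, fell 2.34-fold. The leukotriene B4 receptor was thus higher in the libraries in which Alox5 was lower, and a link between them was not tested.

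Hcar2 (NCBI gene 80885, chromosome 5, 123863570 to 123865516), the receptor for niacin and the ketone body beta-hydroxybutyrate, had the largest log2 fold change of the 22 with 1 added to FPKM. With 0.1 added, Ltb4r1 was at 5.96 and Hcar2 at 5.49. Hcar2 held 1.08, 0.71 and 0.96 FPKM in the control libraries and 46.7, 45.1 and 43.1 FPKM in the co-cultured libraries, and the co-cultured libraries lay within 3.68 FPKM of each other (49.1-fold, log2 fold change 4.59, SE 0.09, limma adjusted p = 1.30e-08). It ranked 39th of 817 higher genes on the log2(FPKM + 1) scale.

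The amine receptors went both ways. Hrh2 (chromosome 13, 54191970 to 54236182), the histamine H2 receptor that raises cyclic AMP, held 0.11, 0.07 and 0.15 FPKM in the control libraries and 6.20, 6.38 and 6.03 FPKM in the co-cultured libraries and was 56.4-fold higher in co-culture (log2 fold change 2.70, SE 0.07, limma adjusted p = 2.48e-08). The groups of Hrh2 were far apart, and no control reached 1 FPKM. Htr2b (chromosome 1, 86097546 to 86116231), the serotonin 2B receptor, held 26.1, 26.7 and 27.7 FPKM in the control libraries and 4.04, 3.57 and 4.37 FPKM in the co-cultured libraries and fell 6.71-fold (log2 fold change -2.48, SE 0.08, limma adjusted p = 6.08e-08). A further 3 were not tested. Adrb1 held 0.86 to 1.61 FPKM in the control libraries and 0.14 to 0.2 FPKM in the co-cultured libraries, Adra1a held 0.61 to 0.72 FPKM in the control libraries and 0.08 to 0.15 FPKM in the co-cultured libraries, and the serotonin receptor Htr7 held 0.06 to 0.16 FPKM in the control libraries and 0.21 to 0.33 FPKM in the co-cultured libraries. Of the enzymes that clear amines, Hnmt, which methylates histamine, fell from 4.64, 4.06 and 4.37 to 0.96, 1.05 and 0.89 FPKM, and Maoa, which oxidizes serotonin and noradrenaline, fell 3.35-fold. These were the only 2 of 10 listed amine enzymes and carriers with a row. Histamine's H2 receptor and the enzyme that inactivates histamine thus moved in opposite directions, and a link between them was not tested.

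Of the chemoattractant receptors, Fpr2 (chromosome 17, 17887824 to 17893952), a receptor for formyl peptides, serum amyloid and lipids that end inflammation, held 3.48, 3.11 and 4.96 FPKM in the control libraries and 12.01, 6.56 and 9.29 FPKM in the co-cultured libraries. Its control and co-cultured libraries did not overlap, and it rose 2.41-fold (log2 fold change 1.07, SE 0.22, limma adjusted p = 0.00188). With every library scaled to an equal total the call was lost (log2 fold change 0.26, limma adjusted p = 0.29). C5ar2 (chromosome 7, 16234587 to 16244154), the C5a receptor that does not couple to G proteins, fell from 6.07, 5.94 and 6.05 to 2.34, 2.45 and 2.22 FPKM (log2 fold change -1.07, SE 0.06). All 3 tested genes of 10 listed ligands and complement factors rose. C3, the central complement protein, went from 14.4, 10.95 and 12.7 to 314, 281 and 289.9 FPKM, Cfb, a protease of the alternative pathway, rose 9.86-fold, and Saa3, a serum amyloid protein, had a log2 fold change of 1.04 that was 0.12 with equal totals (limma adjusted p = 0.47).

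The adhesion receptors, which have a long extracellular part that is cut from the helices, had 5 rows, of which 2 were tested and both fell. In mean FPKM 3 of the 5 were lower in co-culture and 2 higher. Adgre5 (NCBI gene 26364, chromosome 8, 83723245 to 83741311), the leukocyte receptor CD97, held 11.8, 11.3 and 11.2 FPKM in the control libraries and 1.14, 1.17 and 1.51 FPKM in the co-cultured libraries and fell 8.98-fold (log2 fold change -2.45, SE 0.08, limma adjusted p = 9.03e-08). Adgrg1 (chromosome 8, 94974756 to 95014208), also called GPR56, held 3.05, 2.85 and 3.10 FPKM in the control libraries and 1.10, 1.08 and 1.41 FPKM in the co-cultured libraries and fell 2.51-fold (log2 fold change -0.87, SE 0.08). Adgre4 was at 0.11 to 0.18 FPKM in the controls and listed at 0 in all co-cultured libraries, Adgrg5, the neighbour of Adgrg1 on chromosome 8, was at 0.03 to 0.1 FPKM in the control libraries and 0.45 to 0.78 FPKM in the co-cultured libraries, and Adgrf3 was listed at 0 in all controls and at 0.09 to 0.12 FPKM in co-culture. The neighbours Adgrg1 and Adgrg5, 31463 bases apart, thus had opposite signs.

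Of the 14 genes named Gpr, 7 were tested, and 2 rose and 5 fell. Gpr35 (chromosome 1, 92948052 to 92986391), an orphan receptor of macrophages and gut, held 3.93, 3.41 and 2.79 FPKM in the control libraries and 26.5, 29.2 and 25.9 FPKM in the co-cultured libraries (8.04-fold, log2 fold change 2.69, SE 0.11, limma adjusted p = 1.85e-07). Gpr18 (chromosome 14, 121911434 to 121915888), a receptor abundant in lymphocytes, held 0.37, 0.31 and 0.58 FPKM in the control libraries and 3.65, 3.30 and 3.43 FPKM in the co-cultured libraries (log2 fold change 1.66, SE 0.09). Gpr137b (chromosome 13, 13357620 to 13393644), a protein of the lysosomal membrane, was the most abundant member in FPKM and fell from 464, 488 and 459 to 197, 193 and 183 FPKM (log2 fold change -1.30, SE 0.04). Its log2 fold change was -2.37 after quantile normalization and -2.25 with equal totals. Of the orphan receptors, Gpr157 fell from 33.3, 33.8 and 32.3 to 10.4, 9.96 and 9.61 FPKM (log2 fold change -1.64, SE 0.05). Gpr162 fell from 10.6, 10.6 and 10.9 to 2.37, 2.63 and 2.92 FPKM (log2 fold change -1.69, SE 0.08), and Gpr176 from 5.64, 4.85 and 5.29 to 1.21, 1.27 and 1.92 FPKM (log2 fold change -1.35, SE 0.12). All 3 had every co-cultured library below every control.

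Gpr183 (chromosome 14, 121952331 to 121965193), the receptor EBI2 for the oxysterol that guides B cells and T cells in lymphoid tissue, held 6.25, 6.28 and 5.55 FPKM in the control libraries and 1.48, 1.74 and 1.25 FPKM in the co-cultured libraries and fell 4.04-fold (log2 fold change -1.50, SE 0.09). Ch25h, which makes 25-hydroxycholesterol and so starts the synthesis of that ligand, rose from 1.70, 2.03 and 2.52 to 21.7, 19.4 and 20.96 FPKM (log2 fold change 2.82, SE 0.11). Cyp7b1, the next enzyme, was not tested and held 0.04 to 0.09 FPKM in the control libraries and 0.32 to 0.63 FPKM in the co-cultured libraries. Of the 16 listed genes of lysophospholipid and oxysterol synthesis and breakdown, 3 were tested. Sphk1, which makes sphingosine 1-phosphate, rose 5.4-fold, and Plpp1, which breaks down lipid phosphates, fell 3.52-fold. The receptor Gpr183 and the enzyme at the start of its ligand's synthesis thus moved in opposite directions, and a link between them was not tested.

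The proteases caught by the symbol rule went apart. Htra4 rose from 0.26, 0.35 and 0.24 to 2.57, 2.60 and 2.79 FPKM (log2 fold change 1.51, SE 0.07), and Htra3 fell from 1.88, 1.59 and 1.62 to 0.62, 0.37 and 0.47 FPKM (log2 fold change -0.86, SE 0.09).

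Below the limit of 1 FPKM stood 15 of the 37 genes, with 9 higher and 6 lower in mean FPKM and single values between 0 and 1.94 FPKM. Gpr15, a homing receptor of T cells, held 0.02, 0 and 0.04 FPKM in the control libraries and 1.75, 1.47 and 1.57 FPKM in the co-cultured libraries. Gpr171, an orphan receptor of lymphocytes, held 0.15, 0.04 and 0.06 FPKM in the control libraries and 1.27, 1.66 and 1.94 FPKM in the co-cultured libraries. Gpr132, a receptor of lymphocytes and macrophages, was at 0.02 to 0.1 FPKM in the control libraries and 0.37 to 0.52 FPKM in the co-cultured libraries. Gpr55, which responds to lysophosphatidylinositol, and Gpr158 did not exceed 0.15 FPKM in any library. Gpr39, a zinc receptor, was at 0.91 to 1.21 FPKM in the control libraries and 0.39 to 0.55 FPKM in the co-cultured libraries, and Gpr137c at 0.61 to 0.93 FPKM in the control libraries and 0.32 to 0.35 FPKM in the co-cultured libraries. The co-cultured libraries of Gpr15, Gpr171 and Cysltr2 were all above 1 FPKM, and no co-cultured library of the other 12 was.

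**Figure D2:**
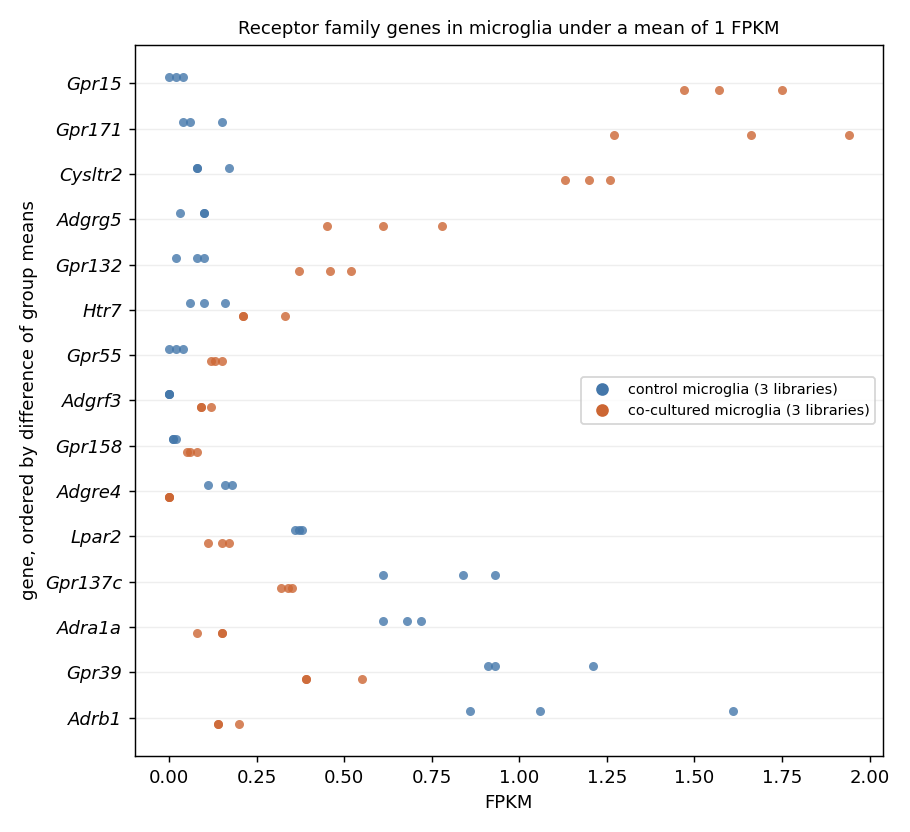
FPKM, on the horizontal axis, of the 15 receptor family genes with a mean under 1 FPKM in microglia, with a point for each of 3 control and 3 co-cultured libraries. Gpr15, Gpr171 and Cysltr2 stand above 1 FPKM in co-culture, and no gene reaches 2 FPKM in any library.

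Markers of other cells moved beside these genes. Of 12 T cell markers, Ikzf2 and Lck had a row, and their summed level was 0.6 to 0.8 FPKM in the controls and 1.71 to 1.8 FPKM in co-culture. Of 6 fibroblast and mural cell markers, 5 had a row, and their sum was 557 to 634 FPKM in the controls and 96.1 to 193 FPKM in co-culture. Col1a1, Col1a2, Acta2 and Pdgfrb fell and Dcn rose, and the call of Dcn was lost with equal totals (limma adjusted p = 0.0512). Of 6 endothelial markers, Pecam1 and Ly6c1 had a row, with sums of 1.39 to 1.72 FPKM and 6.53 to 7.67 FPKM. Of 10 neutrophil markers only Lcn2 had a row. It stood at 3.43, 3.26 and 2.38 FPKM in the controls and 10.4, 9.40 and 21.1 FPKM in co-culture. Of 8 oligodendrocyte markers, Mbp, Mag and Cnp had a row. They summed to 26.1 to 28.2 FPKM and 29.0 to 30.5 FPKM, a sum that hides opposite directions. Mbp fell from 14.7, 14.7 and 15.6 to 5.69, 5.57 and 5.75 FPKM. Mag and Cnp rose (log2 fold change 0.82 and 0.90), and the call of Cnp was lost with equal totals (limma adjusted p = 0.968). Of 6 astrocyte markers only Aqp4 had a row. It went from 4.38, 2.72 and 3.24 to 0.7, 1.02 and 2.07 FPKM. The part of these cells in the receptor values was not tested. In bulk RNA, fewer cells of a type and less RNA per cell cannot be told apart.

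On the deposited FPKM scale, adenosine, lysophospholipid, leukotriene, formyl peptide and several orphan receptors were higher in cord Treg libraries than in spleen Treg libraries. The thrombin receptor F2rl3, Gpr15 and the adhesion receptor Adgrg1 were lower. Of the 17 genes, 14 were tested, and 11 rose and 3 fell. Among all genes tested, 61.0% rose and 38.6% fell. The median log2 fold change was 1.45 over the 14 and 0.95 over all genes tested. The spleen and spinal cord libraries did not overlap in 15 of the 17 genes, against 92.7% of all genes in the table. Of the 14, 13 differed by at least 1 on the log2 scale in either direction, against 84.1% of all genes tested. With equal totals 7 of the 14 rose and 3 fell, against 24.8% and 38.6% of all genes tested, and after quantile normalization 11 rose and 3 fell, against 45.9% and 38.6%.

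**Figure D3:**
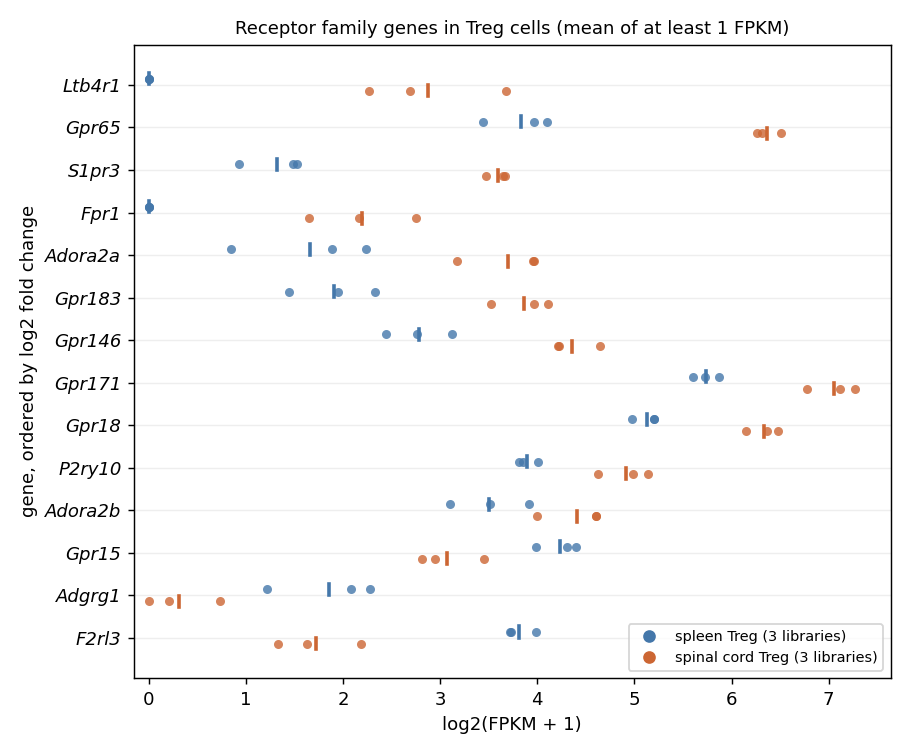
Expression of the 14 receptor family genes tested in Treg cells, as log2(FPKM + 1) on the horizontal axis, with a point for each library and a bar at each group mean. Genes run from Ltb4r1, with a difference of group means of 2.88, to F2rl3, with -2.09, and spleen and spinal cord libraries do not overlap in any of the 14.

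Both adenosine receptors and P2ry10, a P2Y receptor by name, rose on the deposited FPKM scale. Adora2a (NCBI gene 11540, chromosome 10, 75316877 to 75334792), the adenosine receptor that raises cyclic AMP and restrains T cell activation, held 0.8, 3.73 and 2.69 FPKM across the spleen libraries and 14.6, 8.02 and 14.7 FPKM across the cord libraries. The lowest spinal cord library was above the highest spleen library by 4.29 FPKM (5.16-fold, log2 fold change 2.04, SE 0.39, limma adjusted p = 4.95e-04). Adora2b held 10.4, 14.1 and 7.56 FPKM across the spleen libraries and 23.4, 23.4 and 14.96 FPKM across the cord libraries (log2 fold change 0.90, SE 0.29, limma adjusted p = 0.00961), and P2ry10 (chromosome X, 107088492 to 107104974), a lymphocyte receptor reported to respond to lysophosphatidylserine, held 13.5, 13 and 15.1 FPKM across the spleen libraries and 34.2, 23.6 and 30.7 FPKM across the cord libraries (log2 fold change 1.02, SE 0.22). With equal totals neither was called (log2 fold change 0.03 and 0.13, limma adjusted p = 0.969 and 0.72), while Adora2a was called at 1.31. The channel gene P2rx1 held 1.28, 1.22 and 0 FPKM across the spleen libraries and was listed at 0 in all spinal cord libraries.

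Of the 15 nucleotide and adenosine genes 3 were tested in the Treg cells. Slc29a1, the adenosine transporter, fell from 375, 384 and 382 to 173, 132 and 183 FPKM (log2 fold change -1.23, SE 0.15). Enpp1, which cleaves ATP, went from 0.42, 0.63 and 0.11 to 3.30, 2.59 and 1.90 FPKM and was not called after quantile normalization (limma adjusted p = 0.0578), and Dpp4, the protease CD26 that binds adenosine deaminase, had a log2 fold change of 1.61, which was 0.99 without spleen library 1 and 0.89 with equal totals (limma adjusted p = 0.175). Of the cyclic AMP and phosphoinositide genes 5 of 37 were tested and 4 rose, while 61.0% of all genes tested rose. Pde4b, a phosphodiesterase that degrades cyclic AMP, rose from 16.5, 11.7 and 14.8 to 89.9, 82.7 and 76.5 FPKM (log2 fold change 2.46, SE 0.20), Crem, a transcription factor gene induced by cyclic AMP, rose 4.82-fold (log2 fold change 2.24, SE 0.15), and Pde4d rose 4.5-fold. All genes with a row were selected as changed in these libraries, and a link of these genes to Adora2a was not tested.

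Ltb4r1 differed most of the 14 on the log2(FPKM + 1) scale. It was listed at 0 in all spleen libraries and held 5.43, 11.8 and 3.83 FPKM in the spinal cord (difference of means on the log2(FPKM + 1) scale 2.88, SE 0.36, limma adjusted p = 2.61e-05). With the spleen listed at 0 this difference depends on the added 1 and is not a fold. S1pr3 (chromosome 13, 51408618 to 51422797), a sphingosine 1-phosphate receptor, held 1.81, 1.89 and 0.9 FPKM across the spleen libraries and 10.1, 11.7 and 11.6 FPKM across the cord libraries (7.26-fold, log2 fold change 2.28, SE 0.30, limma adjusted p = 3.42e-05). Fpr1 (chromosome 17, 17876471 to 17883939), the high-affinity formyl peptide receptor of phagocytes, was listed at 0 in all spleen libraries and held 3.50, 5.74 and 2.14 FPKM in the spinal cord (difference 2.19 on the same scale, SE 0.32, limma adjusted p = 7.02e-05). Gpr141, an orphan receptor under the limit for testing, was likewise listed at 0 in the spleen and held 0.79, 1.04 and 0.2 FPKM in the cord.

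Markers of phagocytes moved with these genes. Of 12 microglia and macrophage markers 6 had a row, and their summed level was 27.9 to 36.9 FPKM in the spleen and 81.1 to 97.5 FPKM in the cord. Cd14 rose from 0, 2 and 1.20 to 24.5, 26.2 and 18.1 FPKM, Csf1r, Cd68 and Cx3cr1 were called higher only without scaling to equal totals, and Fcrls was listed at 0 in all spinal cord libraries. The neutrophil markers S100a8 and Mmp8, the 2 of 10 with a row, summed to 4.22 to 9.77 FPKM and 28.4 to 83.0 FPKM. Of 6 B cell markers only Cd79b had a row. It was listed at 0 in the spleen and held 5.38, 3.13 and 2.66 FPKM in the cord. Of 6 listed endothelial markers, Pecam1, Kdr and Ly6c1 had a row. They summed to 39.4 to 44.4 FPKM in the spleen and 163 to 410 FPKM in the cord. Most of this came from Ly6c1 (36.9, 34.5 and 32.3 against 348, 153 and 395 FPKM). Ly6c1 was well above 0 in every spleen library, where Kdr was listed at 0, so it alone does not identify endothelial cells here. Pecam1 overlapped between the groups and was not called with equal totals (limma adjusted p = 0.869), and Kdr was above 0 only in cord library 2, at 0.67 FPKM. Of 8 oligodendrocyte markers only Cnp had a row, and it rose 3.66-fold from 48.0, 52.0 and 56.7 FPKM in the spleen. With such levels in every spleen library, Cnp alone does not identify oligodendrocytes here. Of the fibroblast list Pdgfrb was listed at 0.60 FPKM in 1 spinal cord library and at 0 elsewhere. The part of these cells in the values of Ltb4r1, Fpr1, S1pr3 and Gpr141 was not tested.

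Of the 7 genes named Gpr in the Treg table, 6 were tested, and 5 rose and 1 fell (3 and 1 with equal totals). Gpr65 (NCBI gene 14744, chromosome 12, 98268635 to 98276722), a proton-sensing receptor of lymphocytes and macrophages, held 14.7, 9.83 and 16.2 FPKM across the spleen libraries and 78.7, 75.6 and 90.3 FPKM across the cord libraries (6.02-fold, log2 fold change 2.53, SE 0.22, limma adjusted p = 2.05e-06). Its lowest spinal cord library was 59.4 FPKM above its highest spleen library. Gpr183 held 2.85, 1.72 and 4.03 FPKM across the spleen libraries and 14.6, 16.2 and 10.5 FPKM across the cord libraries (4.81-fold, log2 fold change 1.96, SE 0.32), and Gpr146 (chromosome 5, 139377697 to 139396415), an orphan receptor, held 5.80, 7.73 and 4.43 FPKM across the spleen libraries and 17.7, 17.6 and 23.98 FPKM across the cord libraries (log2 fold change 1.58, SE 0.28). Their log2 fold changes were 1.19 and 0.74 with equal totals and stayed called.

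Gpr171 (chromosome 3, 59096448 to 59101821), an orphan receptor of lymphocytes, held 51.9, 57.5 and 47.7 FPKM across the spleen libraries and 154, 108 and 138 FPKM across the cord libraries (2.55-fold, log2 fold change 1.32, SE 0.18, limma adjusted p = 4.00e-05), and Gpr18 held 35.7, 35.7 and 30.5 FPKM across the spleen libraries and 87.9, 70.1 and 81.7 FPKM across the cord libraries (2.35-fold, log2 fold change 1.21, SE 0.17). With equal totals the calls of both were lost (log2 fold change 0.40 and 0.29, limma adjusted p = 0.121 and 0.266). Gpr15 (chromosome 16, 58716643 to 58718872), the receptor that guides T cells to the large intestine, held 20.1, 18.8 and 14.9 FPKM across the spleen libraries and 6.01, 6.74 and 9.91 FPKM across the cord libraries and fell 2.37-fold (log2 fold change -1.16, SE 0.27, limma adjusted p = 0.00169).

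F2rl3 (NCBI gene 14065, chromosome 8, 72761659 to 72763898), which encodes PAR4, a receptor opened by thrombin, held 14.8, 12.3 and 12.1 FPKM across the spleen libraries and 3.56, 1.52 and 2.10 FPKM across the cord libraries and fell 5.46-fold (log2 fold change -2.09, SE 0.31, limma adjusted p = 7.97e-05). It ranked 17th of 414 lower genes on the log2(FPKM + 1) scale. Of 14 listed coagulation genes, 3 were tested. Plaur, the urokinase receptor, rose from 5.91, 10.1 and 8.12 to 279.8, 305 and 259.6 FPKM, Procr, the protein C receptor, rose 12.1-fold (log2 fold change 3.56, SE 0.19), and Tfpi, an inhibitor of tissue factor, fell from 10.1, 15.9 and 16.3 to 6.75, 5.58 and 6.94 FPKM. Adgrg1 held 3.86, 1.32 and 3.23 FPKM across the spleen libraries and 0.16, 0 and 0.66 FPKM across the cord libraries and fell (log2 fold change -1.54, SE 0.34, limma adjusted p = 0.00124). Hrh2 was above 0 in 1 spleen library only, at 2.09 FPKM, and its row rests on that library. The authors' deposited table gave Hrh2 a log2 fold change of -22.34.

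The other signalling parts around these receptors had few rows. Of 25 G protein subunits, Gnai2 was tested in the Treg cells, where its log2 fold change of 0.94 was 0.48 without cord library 2 and 0.02 with equal totals (limma adjusted p = 0.973). In the microglia, Gna13 and Gnb4 rose and Gng4 fell, and the call of Gna13 was lost with equal totals (limma adjusted p = 0.548). Of 27 regulators that end G protein signals, Rgs2 fell in the microglia from 60.1, 63.1 and 64.1 to 18.1, 17.4 and 15.8 FPKM (log2 fold change -1.81, SE 0.06) and had a log2 fold change of 0.90 in the Treg cells, which was 0.03 with equal totals. Rgs14 rose in the microglia, a direction that equal totals turned (log2 fold change -0.11), and Arrdc3, an arrestin-like protein, fell in the Treg cells (log2 fold change -1.31, SE 0.31). Of the 37 cyclic AMP and phosphoinositide genes, 8 were tested in the microglia, and 4 rose and 4 fell (3 and 4 with equal totals). Adcy4, an adenylyl cyclase, rose from 0.27, 0.13 and 0.21 to 4.27, 4.47 and 4.11 FPKM. The phosphodiesterases went both ways. Pde3b fell 3.67-fold, and Pde1c fell 25.1-fold to values near 0 (2.61, 2.81 and 2.37 against 0.08, 0.11 and 0.12 FPKM, log2 fold change -1.70). Others of the list rose, among them Pde4b (log2 fold change 1.11, and 0.24 with equal totals). Among 24 chemokine receptors, all 5 tested rose in the Treg cells, among them Ccr7 (log2 fold change 2.11, SE 0.13), Ccr6 (log2 fold change 1.89, SE 0.17) and Cxcr4 (log2 fold change 1.70, SE 0.35), and 3 of the 5 were called with equal totals. In the microglia 3 rose and 3 fell (2 and 3 with equal totals), and those that fell included Cx3cr1 (log2 fold change -5.80, SE 0.09) and Cxcr4 (log2 fold change -4.77, SE 0.08). Of 14 coagulation genes 4 were tested in the microglia, and 3 rose and 1 fell (2 and 1 with equal totals). F10, which encodes coagulation factor X, rose from 0.32, 0.1 and 0.18 to 3.63, 4.09 and 4.33 FPKM, and Procr rose 2.71-fold.

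Scaling changed how many receptors were called in the Treg cells. With every library brought to an equal total over the table, the median log2 fold change over all genes tested went from 0.95 to 0.09 in the Treg cells and from 0.74 to -0.11 in the microglia, and with quantile normalization to 0.52 and 0.02. Of called genes, 61.2% were higher as deposited and 39.1% with equal totals in the Treg cells, and of called members 78.6% and 70.0%. In the microglia these shares were 53.4% and 42.4% of all called genes and 45.5% and 42.9% of called members. Ltb4r1 stayed at 2.55 and Gpr65 at 1.63 in the Treg cells, and Hcar2 at 3.91, Ltb4r1 at 3.69 and P2ry14 at 2.38 in the microglia. The smallest rise still called in the microglia was that of Adora3, at 0.81. Equal totals lowered the log2 fold change of each of the 14 tested members in the Treg cells by between 0.29 and 0.92 and of each of the 22 in the microglia by between 0.40 and 0.96. So the falls were larger and the rises smaller on that scale, for Adgrg1 of the microglia -1.51 against -0.87. Such scalings are computed over chosen genes and by construction take out part of any shift these genes share.

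**Figure D4:**
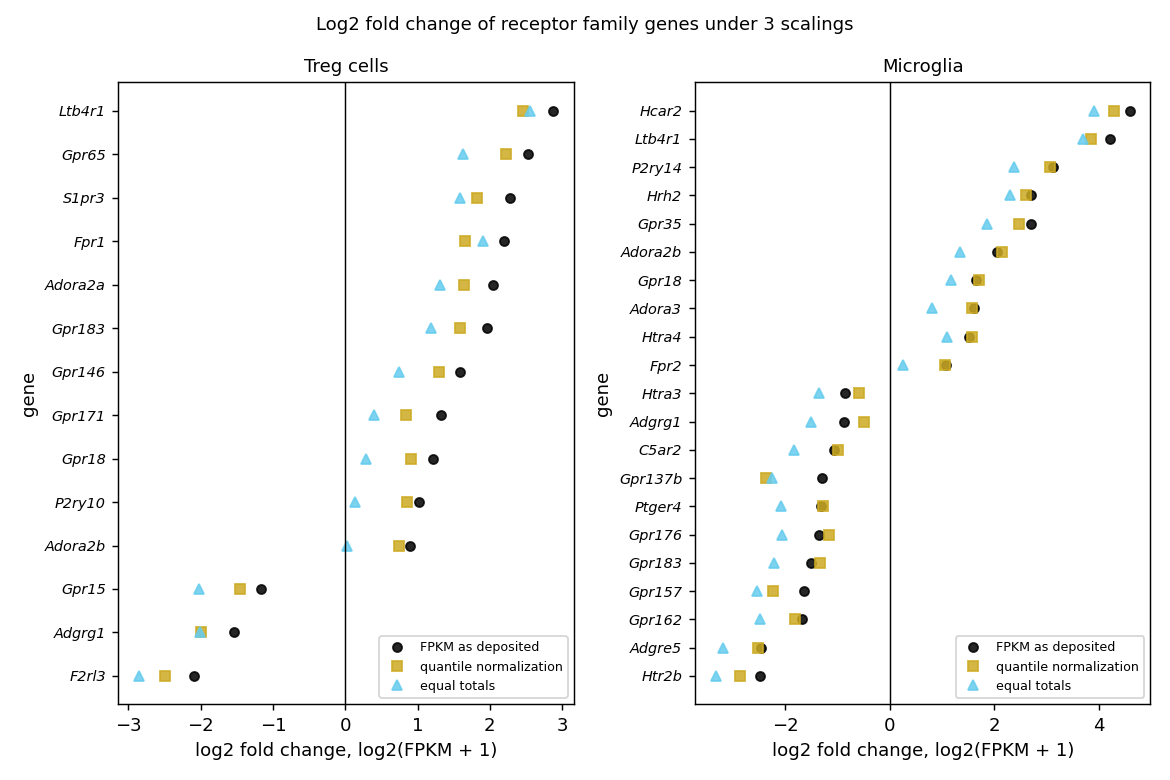
Log2 fold change, on the horizontal axis, of the 14 tested genes in Treg cells (left) and 21 of the 22 in microglia (right) with FPKM as deposited, after quantile normalization and with equal totals. No gene shown crosses 0 under either scaling, and Adora2b in the Treg cells comes closest, at 0.03 with equal totals.

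Of the 8 genes with a row in both tables, 5 had the same direction in the cord Treg cells and the co-cultured microglia and 3 had opposite directions. Of all 282 genes with a row in both, 196 (69.5%) had the same direction. The tables were normalized separately, so levels in the 2 cell types are set side by side only. Ltb4r1, Adora2b, Gpr18 and Gpr171 were higher in both. Gpr171 stood at 154, 108 and 138 FPKM in cord Treg cells and at 1.27, 1.66 and 1.94 FPKM in co-cultured microglia, and Gpr18 at 87.9, 70.1 and 81.7 FPKM and 3.65, 3.30 and 3.43 FPKM. Adgrg1 was lower in both. Gpr183 was higher in cord Treg cells and lower in co-cultured microglia, and Gpr15 and Hrh2 were lower in cord Treg cells and higher in co-cultured microglia. Hrh2 in the Treg cells rests on the library named above.

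**Figure D5:**
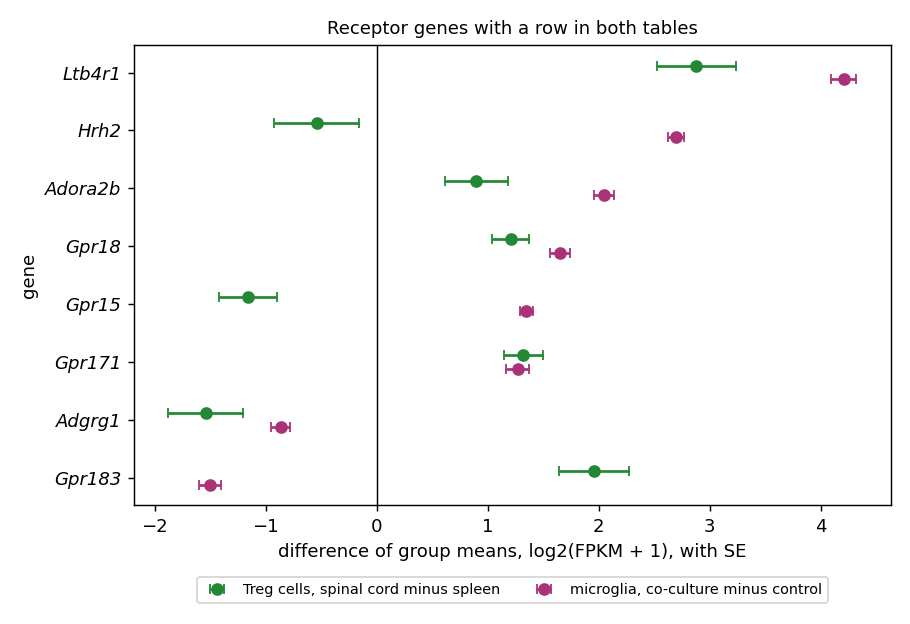
Difference of group means on the log2(FPKM + 1) scale, with its SE from limma run without a limit on low values, for the 8 genes with a row in both tables. Green points are spinal cord minus spleen Treg cells and purple points are co-cultured minus control microglia; Gpr183, Gpr15 and Hrh2 lie on opposite sides of 0.

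Several of these genes are neighbours in the genome, and their rows can share reads with genes around them. Gpr18 and Gpr183 lie 36443 bases apart on chromosome 14, both inside Ubac2 in the RefSeq annotation. In the Treg cells both rose, and in the microglia Gpr18 rose and Gpr183 fell. Gpr171 and P2ry14 lie 12802 bases apart on chromosome 3, both inside Med12l, and both were higher in co-culture. Med12l itself had a row in the Treg table, where every spleen library was listed at 0 and the cord libraries held 0.39, 0.1 and 0.07 FPKM. Fpr1 and Fpr2 lie 3885 bases apart on chromosome 17, and each had a row in a different table. The sources used here do not say whether strand was used in counting, so reads of Ubac2 or Med12l cannot be told apart from those of the genes inside them. The same limit holds for Htr2b, which overlaps Psmd1, Adora3, which overlaps Tmigd3, and Adgre5, which overlaps Ddx39a. Fpr1 and Fpr2 are close paralogs, and reads could be split between them.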

How the data were processed

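Bulk mRNA was measured in 12 libraries of 4 groups of 3, with groups and replicate numbers from the sample titles. FPKM with 2 decimals came from the authors, per the file headers, as did a log2 fold change and a Q value deposited beside it, whose computation the sources used here do not state. The submitters' processing notes name Bowtie2, RSEM 1.3.1, DESeq2 1.4.5 and GRCm38.p6 but give them no roles. Every deposited gene had an absolute authors' log2 fold change above 1 and a Q value up to 0.0498 (Treg cells) or 0.0497 (microglia). The microglia fold change is headed with a word no label uses, and its sign equalled that of co-culture minus control in all 2186 genes.

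Each table was fitted alone. Genes with a mean of at least 1 FPKM over the libraries were kept, log2(FPKM + 1) was fitted with limma 3.58.1 (eBayes with trend) in R 4.3.3, and p-values were adjusted by Benjamini-Hochberg over the 1072 or 1529 genes kept, with a threshold of 0.05. Python 3.11.15 and pandas 2.3.3 did the rest. On simulated data the fit recovered 32.8%, 58.2% and 97.0% of 1.5-, 2- and 4-fold changes for the Treg cells and 83.6%, 94.0% and 100% for the microglia. Of the calls, 5.3% and 5.6% were false. The simulated data had independent normal noise and left most genes unchanged, while these tables hold only genes selected as changed. These shares therefore do not give the error of the calls reported here.

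The members and lists were chosen with earlier results of these data known. The rule names every member and, of each list, up to 3 called genes with the largest change; others were named after their values were seen. Of the tested members 1, and some listed genes, are not reported here by name or drawn, but stay in counts, medians and sums. Alternatives were a pseudocount of 0.1, no limit on low values, equal totals, quantile normalization, a replicate block and leaving out each library. FPKM gives no depth, so no counting error is given.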

Additional observations from a re-analysis of the deposited data

How the results depend on the processing

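Of the 14 members tested in the Treg cells and the 22 in the microglia, every one kept its direction and its call with a pseudocount of 0.1, without a limit on low values, after quantile normalization, with the replicate block and without each library in turn. Equal totals ended the calls of Adora2b, Gpr171, Gpr18 and P2ry10 in the Treg cells and of Fpr2 in the microglia and left 7 members called higher in the Treg cells against 11. Without the limit on low values 19 members were called higher in the microglia against 10 and 18 lower against 12, because the 15 low genes then entered. The share of all genes called under that setting is not given here. As all rows were selected as changed, these added calls are no result in themselves. Of the 44 related genes tested in the microglia, 17 were called higher with equal totals against 26 as deposited. Among all genes tested there, these shares were 35.1% and 53.4%. Directions turned with equal totals in Tbxas1 (-0.01), Rgs14 (-0.11) and Cmklr1 (-0.09) of the microglia and in Plcb2 (-0.17) of the Treg cells, and with quantile normalization in Cmklr1 (-0.09); the cause was not tested. Calls of related genes were also lost for Dpp4 (log2 fold change 0.99 against 1.61, limma adjusted p = 0.0598) and Gnai2 (0.90 against 0.94, 0.0523) without spleen library 1 and for Nt5e (0.0554) without control library 3. Leaving out a library moved no member's log2 fold change by over 1.5 times; Gnai2 of the Treg cells went to 0.48 without cord library 2, where it was still called, Cx3cr1 to 1.05 from 1.65 without spleen library 2, and Plcb2, not called, to 0.28 from 0.59 without cord library 1. Relative to its own log2 fold change, Adora2b in the Treg cells moved most of the members, between 0.69 and 1.10 (largest limma adjusted p = 0.0457). In log2 units others moved further, such as Ltb4r1 in the Treg cells, between 2.48 and 3.18. No pairing by replicate number was seen across all libraries. Deviations of same-numbered libraries correlated at -0.003, -0.041 and -0.053 in the Treg cells and -0.041, 0.149 and 0.175 in the microglia. Not every library correlated best with its own number. With 3 libraries a group and genes selected as changed, this cannot tell whether libraries of different groups shared animals or preparations. The replicate block left 11 members called higher and 3 lower in the Treg cells and 10 and 12 in the microglia. Depth is unknown, and values near 0 FPKM, such as those of Gpr55 or Gpr158, carry an error that cannot be given.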
